A study of Mus musculus with 18 samples.

Results

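Ido1 and 6 further genes of tryptophan breakdown by the kynurenine pathway (Ido2, Tdo2, Afmid, Kmo, Kynu and Haao) were followed through 18 expression arrays of mouse intestinal epithelial cells and intestinal tumours. They are 7 of the 19938 genes that the arrays measured with a named probe set. The genes were chosen by name, as the enzymes around Ido1, and Ido1 was chosen on its values, because it was much higher in part of the Stat3-deleted tumours. The tumour values with and without Stat3 are therefore given for these genes as a description, with no p. Where a count of calls is printed for them there, it stands only beside the share of all genes and supports nothing.

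The kynurenine pathway is the main route by which mammals degrade tryptophan. Its first step is made by indoleamine 2,3-dioxygenase, encoded by Ido1 and by its neighbour Ido2, or by tryptophan 2,3-dioxygenase, encoded by Tdo2 and known mainly from the liver. Afmid, the kynurenine formamidase, then releases kynurenine; Kmo hydroxylates it, Kynu cleaves its side chain, and Haao makes the precursor of quinolinate, from which NAD can be built. Ido1 is a classic target of interferon-gamma, and in the gut it is known for local tryptophan depletion and for kynurenines that restrain T cells and bind the receptor AHR.

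The study asked whether the transcription factor Stat3 is needed for the progression of intestinal tumours in APCmin mice, whose mutated Apc allele activates WNT signalling. Controls carried floxed Stat3 alleles (Stat3 fl/fl), and in the deleted mice a Cre recombinase under the Villin promoter removed Stat3 from the intestinal epithelium, so that the other cells of a tumour kept the gene. There were 6 groups of 3 arrays: control epithelial cells (replicates 1 to 3), Stat3-deleted epithelial cells (4 to 6), male control tumours (7 to 9), male Stat3-deleted tumours (10 to 12), female control tumours (13 to 15) and female Stat3-deleted tumours (16 to 18). The tumours of both genotypes came from the APCmin background. For the epithelial cells the labels gave neither sex nor Apc genotype, and no age was given for any sample. The sample descriptions name chemically induced colorectal tumours, whereas the series text describes tumours that arise in APCmin mice mainly in the small intestine. Whether each array stands for its own animal is not in the labels, so the arrays of a group may not be independent. The p-values set each difference against the spread among these arrays, some of which may be technical.

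Stat3 itself was between 9.74 and 10.35 in the 9 control arrays and between 7.73 and 8.46 in the 9 Stat3-deleted arrays on the deposited log2 scale, with no overlap. Mean epithelial marker levels (8 genes) lay between 11.3 and 12.05 in all groups. Single markers moved in opposite directions: from control epithelial cells to control tumours they differed by -1.61 to 1.82, with 3 of 8 higher. The flat mean is therefore no measure of epithelial content. The tumours held more signal of other cells: the mean of 8 macrophage markers was 5.48 to 5.86 in the epithelial cell arrays and 6.63 to 8.39 in the tumour arrays, and that of 6 fibroblast markers was 6.19 to 6.87 against 9.42 to 11.2. The epithelial cell arrays carried more signal of 10 T and NK cell markers (6.70 to 8.88, highest in replicate 4) than the tumours (5.54 to 6.69). Among tumours, control replicates 9 and 15 stood apart. Their mean over 5 colon markers was 7.85 and 7.69 against 4.79 to 6.26 in the other 10 tumours, and their mean over 8 enterocyte markers was 9.13 and 8.74 against 10.9 to 12.2. In such bulk samples, fewer cells of a type and less RNA per cell cannot be told apart.

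Promoter sequences are shown for Haao and Afmid, the members with a RefSeq entry that were lower in control tumours than in control epithelial cells, and for Irf1, the interferon-induced transcription factor whose values followed those of Ido1 in the tumours. Each line gives the 150 bases before the first listed start site (RefSeq, GRCm38.p6), read 5′ to 3′ on the gene's strand. Capitals mark matches to 3 motifs searched on both strands: the STAT motif TTCNNNGAA, the interferon response motif GAAANNGAAA and the AHR core GCGTG. The windows are chr11:53769864-53770013 on the plus strand for Irf1, chr17:83846791-83846940 on the minus strand for Haao and chr11:117825769-117825918 on the plus strand for Afmid.
Irf1: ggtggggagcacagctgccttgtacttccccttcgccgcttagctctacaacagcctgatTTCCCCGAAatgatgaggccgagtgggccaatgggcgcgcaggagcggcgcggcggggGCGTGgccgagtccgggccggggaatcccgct
Haao: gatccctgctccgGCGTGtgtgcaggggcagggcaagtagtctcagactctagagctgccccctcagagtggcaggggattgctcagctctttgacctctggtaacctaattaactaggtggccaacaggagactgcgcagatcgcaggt
Afmid: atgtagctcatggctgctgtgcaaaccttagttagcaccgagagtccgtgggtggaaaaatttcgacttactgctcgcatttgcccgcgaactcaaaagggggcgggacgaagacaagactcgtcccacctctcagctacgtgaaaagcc
The Irf1 window held a STAT match, TTCCCCGAA, whose first base lies at -90 from the start, and an AHR core at -32. The table lists a second Irf1 start, and its window held no STAT match and 2 AHR cores, at -46 and -12. The Haao window held an AHR core at -137, and the Afmid window held no match. Of 32851 promoters, 7.02% held the STAT motif, 2.98% the interferon motif and 28.2% the AHR core within 250 bases before the start. A match is a description of the letters and not a binding site. The promoter table listed 4 of the 7 members (Tdo2, Kmo, Haao and Afmid) and 4 of the 5 genes most like Ido1; in the 250 bases of the others, Tdo2 held 1 AHR core, Psmb9 held 2, and Kmo, H2-Aa and H2-Eb1 held none of the 3 motifs.

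Ido1, the inducible first enzyme, was high in epithelial cells of both genotypes and varied most among tumours. In control epithelial cells its log2 values were 10.42, 10.16 and 10.62, and in Stat3-deleted epithelial cells they were 10.20, 10.48 and 10.43. The male control tumours had 8.11, 5.76 and 8.01, and the male Stat3-deleted tumours had 10.30, 10.45 and 9.54. The female control tumours had 9.77, 8.62 and 9.05, and the female Stat3-deleted tumours had 9.79, 10.01 and 9.36. Every male control tumour was therefore below every other array of the series, and replicate 8 was the only array in which Ido1 fell below the median of all probe sets. The order of the group means was control epithelial cells (10.40 ± 0.23, SD, n = 3), deleted epithelial cells (10.37 ± 0.15), male deleted tumours (10.10 ± 0.49), female deleted tumours (9.72 ± 0.33), female control tumours (9.15 ± 0.58) and male control tumours (7.29 ± 1.33). Neighbours in this order overlapped in 4 of the 5 pairs, and only the last pair, female and male control tumours, was separate.

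**Figure D1:**
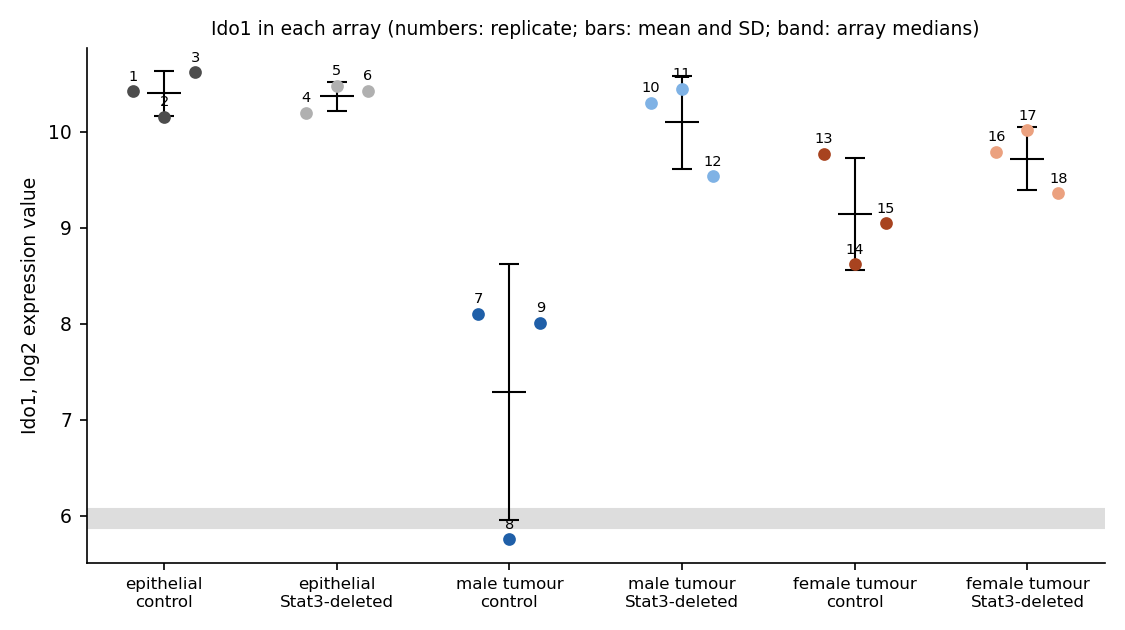
Ido1 in each of the 18 arrays, with the 6 groups on the x axis and the log2 expression value on the y axis; numbers are replicates, bars the group mean and SD (n = 3), and the grey band the range of the array medians (5.88 to 6.07). The 3 male control tumours, between 5.76 and 8.11, lie below all other arrays.

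Ido2, the less active relative of Ido1, was highest in epithelial cells. Its values were 6.14, 6.27 and 5.997 in control epithelial cells and 6.09, 5.94 and 5.81 in deleted ones. The male control tumours had 5.41, 5.57 and 5.46 and the female control tumours 5.53, 5.53 and 5.45. All 12 tumour arrays, between 5.24 and 5.68, lay below all 6 epithelial cell arrays, between 5.81 and 6.27, and the tumour groups overlapped with each other. The share of all genes divided in this way was not counted, so nothing is read from the division. Among the deleted arrays alone, 28.8% of all tested genes were lower in tumours without overlap. Tdo2, the alternative first enzyme, ranged from 2.83 to 4.01 and was below the 25th percentile of all probe sets in every array, so it did not enter the tests.

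Afmid, which acts on the product of the first step, had the same division by tissue. Its values were 6.19, 6.33 and 6.42 in control epithelial cells and 6.67, 6.30 and 6.29 in deleted ones, against 5.44 to 6.13 in the 12 tumours. Haao, further down the pathway, had 5.57, 5.54 and 6.03 in control epithelial cells and 5.62, 5.65 and 5.41 in deleted ones. The control tumours had 5.22, 5.24 and 5.15 in males and 5.16, 5.04 and 5.18 in females, all below all 6 epithelial cell arrays. Deleted tumour replicates 10 and 16 had 5.55 and 5.54 and reached into the epithelial range, while the other 4 deleted tumours lay between 4.94 and 5.22. For Afmid, and for Haao in control tumours, the share of all genes that separated likewise was not counted, so nothing is read from the separation.

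Kmo and Kynu, which process kynurenine, were dim and were not ordered by tissue. Kmo exceeded the 25th percentile of its array in 10 of 18 arrays, and Kynu in all 18, and neither exceeded the median in any. Their highest arrays were the same: female control replicate 15, with 5.65 for Kmo and 5.52 for Kynu, and female deleted replicate 16, with 5.23 and 5.14. The other 16 arrays lay between 4.0003 and 4.77 for Kmo and between 4.48 and 5.11 for Kynu. Replicate 15 also had the highest macrophage marker mean, 8.39, whereas replicate 16 had 7.06. Female deleted replicate 18 had a macrophage marker mean of 8.19, with 4.41 for Kmo and 4.48 for Kynu. The part of those cells in the 2 genes was not tested. Every pair of neighbouring group means overlapped for Tdo2, Kmo, Kynu and Haao, and 4 of 5 pairs did for Ido2 and for Afmid.

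**Figure D2:**
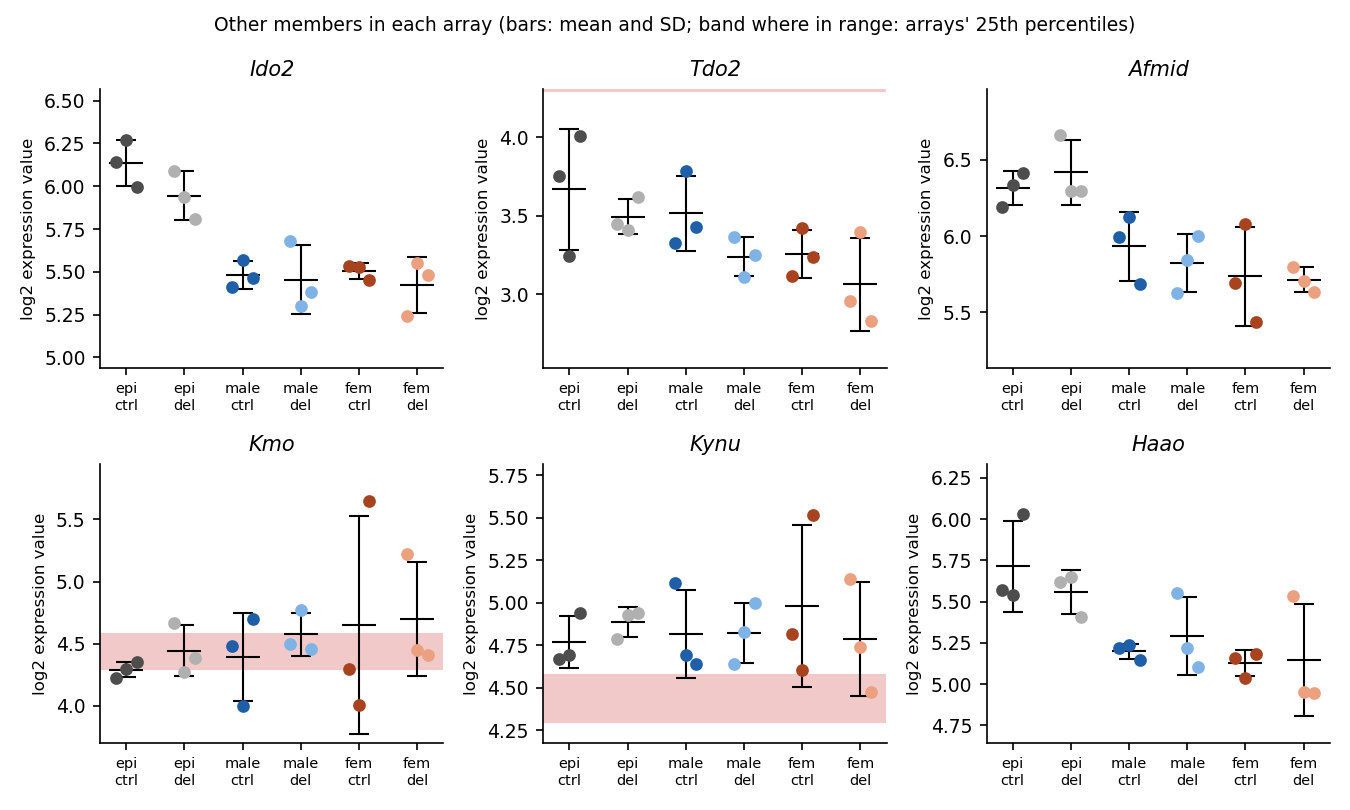
The other 6 members in each array; the x axis gives the group (epi, epithelial cells; male and fem, male and female tumours; ctrl, control; del, Stat3-deleted) and the y axis the log2 expression value, with its own range in each panel. Bars are the mean and SD (n = 3) and the band the range of the arrays' 25th percentiles (4.30 to 4.57). Ido2 and Afmid are higher in all 6 epithelial cell arrays than in all 12 tumours, and Tdo2 lies below the band. The share of all genes divided in this way was not counted.

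Loss of Stat3 from epithelial cells left no detected change in the pathway. Of the 6 members tested, 0 passed (adjusted p under 0.05 in limma, Benjamini-Hochberg over 17316 genes), in a comparison that called 0.0231% of all genes and in which 1178 genes had an unadjusted p under 0.05. Ido1 differed by -0.03 ± 0.47 (log2, SE; deleted minus control; adjusted p = 0.991) and Ido2 by -0.19 ± 0.13 (adjusted p = 0.763) in limma. The other 4 lay between -0.16 for Haao and 0.15 for Kmo. Each SE, here and below, rests on a spread per gene that all 6 groups share. For Ido1 the groups were unequal, with an SD of 0.23 in control and 0.15 in deleted epithelial cells, so 0.47 overstates their spread. The members' median difference was 0.04, and that of all tested genes was 0.0044. With array weights Ido2 passed, at -0.37 (adjusted p = 0.031 in limma; 0.031 to 1 over 10 alternatives). All 10 T and NK cell markers were higher in the deleted than in the control epithelial cells, with a median difference of 1.28, and 0 of them passed; their part in the members' values was not tested.

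Control tumours had less of 4 of the 6 tested members than control epithelial cells, and more of none. Ido1 was lower by a factor of 4.54 (difference -2.18 ± 0.40, adjusted p = 0.0003 in limma) and Ido2 by a factor of 1.56 (-0.64 ± 0.11, adjusted p = 0.000219). Haao was lower by a factor of 1.47 (-0.55 ± 0.15, adjusted p = 0.00494) and Afmid by a factor of 1.39 (-0.48 ± 0.15, adjusted p = 0.0107) in the same limma fit. For each of the 4, all 6 control tumours were below all 3 control epithelial cell arrays. The share of all genes that separated in this way was not counted, so nothing is read from the separation. Kynu (0.13 ± 0.19, adjusted p = 0.548) and Kmo (0.23 ± 0.28, adjusted p = 0.48) did not pass. This was a comparison in which 65.7% of all genes were called, 35.3% lower and 30.4% higher in tumours, so 4 of 6 members is near the background. The members' median difference was -0.52, against -0.08 for all genes. The control tumours are also the reference of the contrast on which Ido1 was chosen, so its fall is not independent of that choice. Haao (adjusted p = 0.0511) and Afmid (adjusted p = 0.0525) lost the limma call without control epithelial replicate 3, and Afmid did so without tumour replicates 9 and 15 (adjusted p = 0.0532). All 8 macrophage and all 6 fibroblast markers rose in the same comparison and all 8 enterocyte markers fell; their part in the members' values was not tested.

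Between male and female control tumours, Ido1 had the widest difference of the 6 tested members. Its level was lower in males by a factor of 3.62 (difference -1.86 ± 0.47), with all 3 male tumours below all 3 female tumours, yet the difference did not pass (adjusted p = 0.883 in limma). Without replicate 8 it was -1.09. The shared SE understates the spread here, where the SD was 1.33 in male and 0.58 in female control tumours. The share of all genes whose arrays separated between these groups was not counted, so nothing is read from the separation. In this comparison, which called 0.0231% of all genes, 0 of 6 members passed, and 495 genes had an unadjusted p under 0.05. The 5 other tested members lay between -0.26 for Kmo and 0.20 for Afmid. Over the alternatives, the adjusted p of Ido1 in limma lay between 0.151 and 1. The male control tumours are also the reference of the contrast on which Ido1 was chosen, so their low Ido1 level, and its rank among the members here, are not independent of that choice. All 11 measured interferon-gamma response genes and all 10 T and NK cell markers were likewise lower in the male control tumours, and 0 of either passed. Without replicates 9 and 15, 2 of the 11 response genes passed, both lower in males, in a setting that called 10 genes instead of 4.

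Between Stat3-deleted and control tumours, the genes of the pathway other than Ido1 showed small differences in both sexes. In males Ido1 was 2.81 ± 0.47 higher in the deleted tumours, a factor of 6.995, with no overlap, and 2.04 higher without replicate 8. This SE is shared by all groups and understates the spread here, where the SD was 1.33 in control and 0.49 in deleted tumours. The 5 other tested members differed by -0.11 (Afmid) to 0.18 (Kmo), and their arrays overlapped. The count of calls was 1 of 6 members, Ido1, beside 0.231% of all genes; it was fixed by the choice of Ido1 on this contrast, and nothing is read from it. In females Ido1 was 0.58 ± 0.47 higher in the deleted tumours, a factor of 1.49, and the arrays overlapped. The other tested members differed by -0.19 (Kynu) to 0.05 (Kmo), and the count of calls was 0 of 6 beside 0.104% of all genes (871 genes with an unadjusted p under 0.05), from which nothing is read either. Leaving out female control replicate 14 brought the difference of Ido1 to 0.31, and leaving out replicate 13 brought it to 0.89.

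Across the deleted tissues, Ido1 was 0.46 lower in the 6 Stat3-deleted tumours (9.36 to 10.45) than in the 3 deleted epithelial cell arrays (10.20 to 10.48), and the arrays overlapped. Ido2, Afmid and the dim Tdo2 did not overlap between the same groups and were lower in tumours, as were 28.8% of all tested genes; 55.9% did not overlap in either direction. Ido2 was 0.51 lower, with 5.24 to 5.68 in tumours and 5.81 to 6.09 in epithelial cells, and Afmid was 0.65 lower, with 5.62 to 5.9995 and 6.29 to 6.67. Tdo2 was 0.34 lower, with 2.83 to 3.3995 and 3.41 to 3.62, below the 25th percentile throughout. Haao was also 0.34 lower, with overlap.

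**Figure D3:**
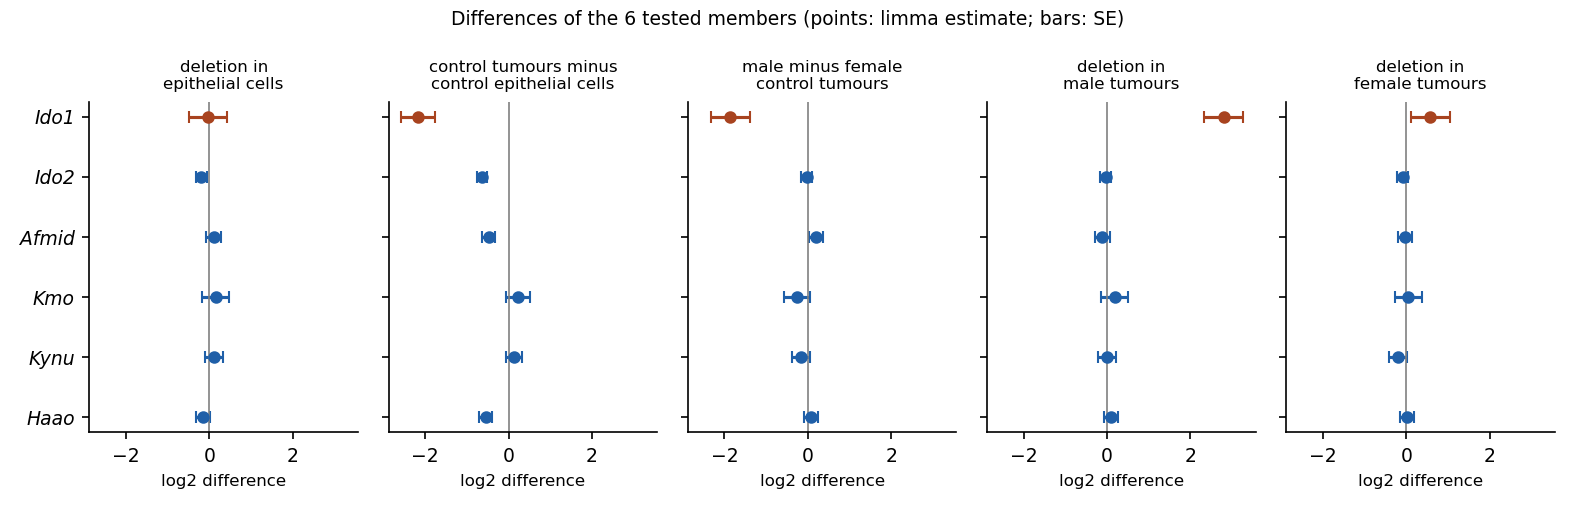
Differences of the 6 tested members in the 5 comparisons; the x axis is the log2 difference (deleted minus control, control tumours minus control epithelial cells, male minus female), points are limma estimates and bars their SE. The largest shifts belong to Ido1, at -2.18, -1.86 and 2.81, and the 2 tumour deletion panels are descriptions, since Ido1 was chosen on them.

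The 5 genes whose pattern over the 12 tumour arrays was most like that of Ido1 were taken from 17315 other tested genes, of which 15 had an r over 0.9; the other 10 are not named. The 5 were H2-Aa and H2-Eb1, which encode chains of MHC class II, Psmb9, a subunit of the immunoproteasome, the transcription factor Irf1, and Ciita, the master activator of MHC class II genes. Pearson's r with Ido1 was 0.95 for H2-Aa, 0.94 for Psmb9, 0.93 for H2-Eb1, 0.93 for Irf1 and 0.93 for Ciita, and Spearman's rho was between 0.76 (H2-Eb1) and 0.91 (Psmb9). Taken on deviations from the 4 group means, r was between 0.74 (Ciita) and 0.92 (Irf1). Without replicates 8 and 9, whose Ido1 values lie farthest from the median, r was between 0.75 (Irf1) and 0.89 (Psmb9). These are the highest of many correlations, they share arrays and their scaling, and they carry no p. The median r of all ranked genes was -0.12. The other tested members of the pathway did not share the pattern: r was 0.34 for Kmo, 0.11 for Haao, 0.08 for Kynu, -0.20 for Ido2 and -0.51 for Afmid.

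Irf1 had 9.54, 8.97 and 9.60 in male control tumours and 10.17, 10.44 and 10.10 in male deleted tumours. In female tumours it had 10.37, 10.20 and 10.22 in controls and 10.29, 10.36 and 10.01 after deletion. As with Ido1, the 3 male control tumours were the lowest arrays and replicate 8 the lowest of all. Ciita had 6.31, 5.72 and 6.41 in male control tumours and 7.83, 7.70 and 7.31 in male deleted ones, and Psmb9 had 8.71, 7.98 and 9.64 against 10.57, 10.63 and 10.04. Neither group pair overlapped. In epithelial cells the patterns parted: Ciita was 6.34 to 6.73 in control epithelial cells and 6.86 to 7.06 in deleted ones, below all 6 deleted tumours, where Ido1 overlapped with the epithelial cells.

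**Figure D4:**
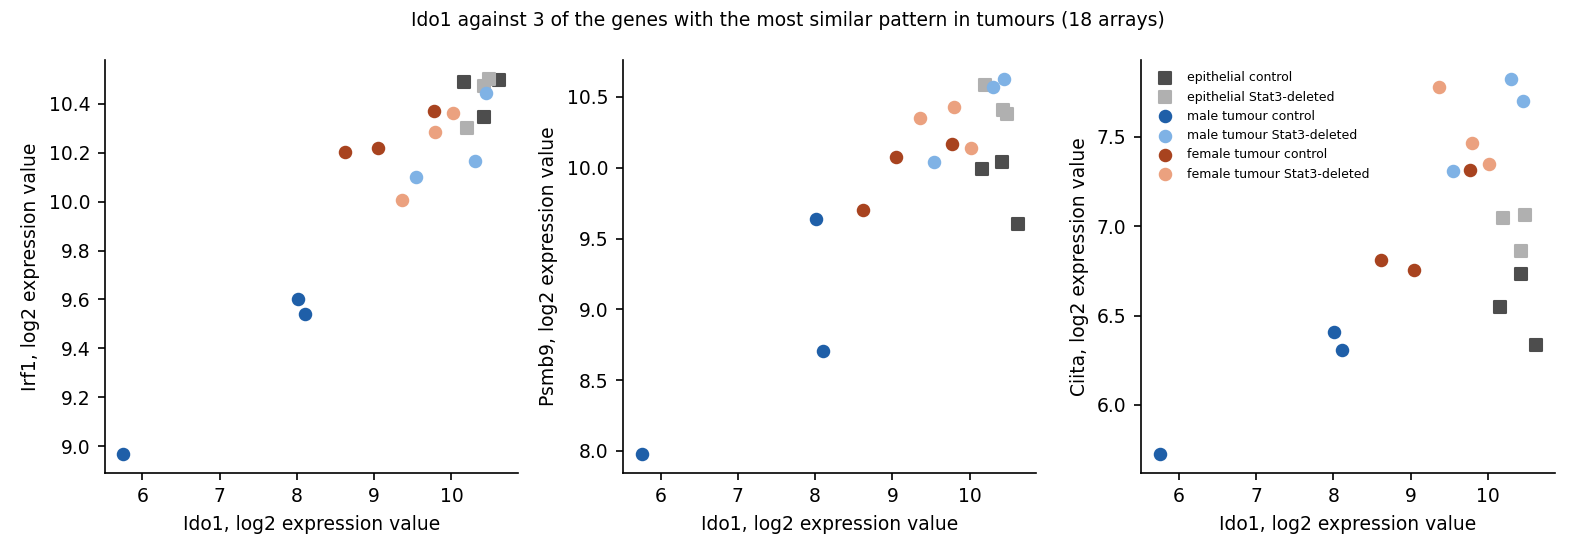
Irf1, Psmb9 and Ciita (y axes) against Ido1 (x axes), log2 expression values in all 18 arrays; circles are tumours and squares epithelial cells, coloured by group. Replicate 8, at an Ido1 value of 5.76, is the lowest array in each panel, and the epithelial cells lie below the deleted tumours in Ciita at similar Ido1 values.

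Of the known upstream regulators of Ido1, 1 of 15 tested genes rose after Stat3 deletion in male tumours and 0 fell: Irf1, by 0.87 ± 0.17 (adjusted p = 0.0491 in limma). Among 11 interferon-gamma response genes, 2 rose and 0 fell: Ciita by 1.47 ± 0.21 (adjusted p = 0.00363) and Psmb9 by 1.64 ± 0.30 (adjusted p = 0.0288) in limma. The comparison called 40 genes, 0.231% of all tested. The response list had a median difference of 1.47, with 10 of 11 genes higher, against -0.04 for all genes. The calls of Irf1 and Psmb9 were fragile, being lost in 8 and 6 of 11 alternatives (adjusted p 0.0183 to 1 and 0.000447 to 0.938), and that of Ciita was lost in 1 (0.00194 to 0.35). Without replicates 9 and 15, 8 of the 11 response genes passed, all higher, in a setting that called 117 genes instead of 40. Ifng, the gene of the interferon itself, was 4.77 to 5.09 in male control tumours and 4.55 to 4.82 in deleted ones and did not pass (-0.25, adjusted p = 0.872 in limma). The 3 genes overlap with those most like Ido1, whose level led to the choice of these lists, so their rise is not independent of that choice. The T and NK cell markers had a median difference of 0.17 in the same comparison and 0 passed, 8 of 10 being higher, and all 8 macrophage markers were lower with 0 passing. All 8 enterocyte markers were higher, by 0.40 to 1.29 with a median of 0.83, and 0 passed. All 5 B and plasma cell markers were higher, with a median of 0.53, and 0 passed. Of 7 neutrophil markers, 1 passed, lower. They ranged from -3.73 to 0.35 with a median of 0.01, 4 of 7 being higher. Of 5 small intestine markers, 1 passed, lower. They ranged from -3.44 to 1.09 with a median of -1.33, 1 of 5 being higher. The 5 colon markers were likewise mostly lower, from -2.01 to 0.04 with a median of -1.01, 1 of 5 being higher, and 0 passed. The part of these cells, or of the position in the gut, in the values of Ido1 and of the response genes was not tested.

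In female tumours 0 companion genes passed in any of the 6 lists, and the response list had a median difference of 0.21, with 7 of 11 genes higher. Irf1 differed by -0.05 and Ciita by 0.57 (adjusted p = 0.997 and 0.75 in limma). All 8 enterocyte markers were higher in deleted female tumours too, by 0.60 to 2.09 with a median of 0.93. Of 8 macrophage markers 1 was higher (median -0.22), and of 10 T and NK cell markers 5 were (-0.04). Of 5 B and plasma cell markers 4 were higher (0.16). Of 7 neutrophil, 5 colon and 5 small intestine markers 1 each was higher (medians -0.35, -0.61 and -0.08). In all these lists 0 passed, and their part in the values was not tested. The female minus male difference of the deletion effect was -0.91 ± 0.24 for Irf1, -1.31 ± 0.42 for Psmb9 and -0.89 ± 0.29 for Ciita, and none of them passed (adjusted p = 1 for each in limma). Of 65 companion genes, 0 passed for this difference and 12 had an unadjusted p under 0.05. The share of all genes with such a p was not counted, and the lists were chosen around Ido1, so nothing is read from the 12. In epithelial cells, too, 0 companion genes passed after deletion, with response list differences between -0.30 and 0.58 and a median of 0.38.

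In control tumours against control epithelial cells, 4 of the 11 interferon-gamma response genes rose and 0 fell, beside 30.4% and 35.3% of all genes: the chemokines Cxcl9 (3.54 ± 0.55, adjusted p = 7e-05 in limma) and Cxcl10 (2.49 ± 0.47, adjusted p = 0.000372), and the interferon-induced GTPases Iigp1 (3.66) and Gbp3 (1.49). Without replicates 9 and 15, 4 rose and 2 fell. Irf1 fell by 0.63 ± 0.15 (adjusted p = 0.00194 in limma), while Psmb9 (-0.50, adjusted p = 0.0973) and Ciita (0.01, adjusted p = 0.951) did not pass. Among the upstream regulators, 4 rose and 4 fell of 15, a smaller share than the 65.7% of all genes called. Ptgs2, the inducible prostaglandin synthase, rose by 3.84 ± 0.38 (adjusted p = 1.02e-06 in limma) and Tgfb1 by 1.53, whereas the kinase Jak2 fell by 1.19 and Bin1 fell by 0.85. Ifng did not pass (-0.04, adjusted p = 0.851 in limma).

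Genes that move tryptophan or spend it elsewhere were for the most part lower in tumours. Of 12 tested genes, 9 fell and 2 rose in control tumours, where 35.3% of all genes fell and 30.4% rose, with a median of -1.73 against -0.08 for all genes. Slc7a5, a subunit of the exchanger that carries tryptophan and kynurenine, rose by a factor of 4.43 (2.15 ± 0.20, adjusted p = 5.88e-07 in limma). Its partner Slc3a2 fell by 0.97, and the related exchanger Slc7a8 and the aromatic amino acid carrier Slc16a10 fell by 2.16 and 1.98. Slc6a19, the main apical carrier of neutral amino acids in enterocytes, had the largest fall of the list and was singled out after its values were seen (-3.61 ± 0.84, adjusted p = 0.00169 in limma). Wars, which charges tRNA with tryptophan and is itself induced by interferon-gamma, rose by 1.20 ± 0.20 (adjusted p = 0.000113), and Tph1, which diverts tryptophan to serotonin in enteroendocrine cells, fell by 1.48 ± 0.26 (adjusted p = 0.000182), both in limma. All 7 enteroendocrine markers, Tph1 among them, fell in the same comparison. In the other 4 comparisons 0 of the 12 passed.

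Downstream of the pathway, 7 of 10 genes of side branches and NAD synthesis fell in control tumours and 1 rose, beside 35.3% and 30.4% of all genes, with a median of -0.51. Naprt, which makes NAD from nicotinic acid, fell by 1.94 ± 0.31 (adjusted p = 8.65e-05 in limma), Kyat1, a kynurenine aminotransferase, fell by 1.12, and Nmnat1, which completes NAD, fell by 0.68. Got2, an aminotransferase of mitochondria, rose by 0.92. Qprt, the enzyme that takes quinolinate into NAD synthesis, fell by 0.57 ± 0.18 (adjusted p = 0.0127 in limma) and lost the call without control epithelial replicate 2 or 3 (adjusted p = 0.0655 and 0.0545). Without replicates 9 and 15, 5 of the 10 fell.

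Of 9 genes that sense kynurenines through AHR or GPR35, 5 fell and 1 rose in control tumours, where 35.3% of all genes fell and 30.4% rose; the 6 called are near the background of 65.7%. Cyp1a1, the classic AHR target, was 8.20, 8.997 and 7.55 in control epithelial cells and 4.27 to 5.26 in the 6 control tumours, and fell by 3.49 ± 0.43 (adjusted p = 8.11e-06 in limma). The AHR targets Nqo1 and Cyp1a2 fell by 0.91 and 0.68, and Cyp1b1 rose by 2.10. Ahr itself did not pass (0.34 ± 0.20, adjusted p = 0.156 in limma) but did so with array weights (adjusted p = 0.0199) and without replicate 8 (adjusted p = 0.0364). In the Stat3-deleted tumours Cyp1a1 was 6.46, 5.29 and 5.54 (male) and 5.88, 6.86 and 4.48 (female). The differences from the controls, 1.08 and 0.90, did not pass (adjusted p = 0.649 and 0.997 in limma).

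The amino acid starvation response, which low tryptophan can trigger through the kinase GCN2, had calls in both directions in control tumours: 3 of 8 genes rose and 2 fell, with a median of 0.06. This is near the background, in which 65.7% of all genes were called. Eif2ak4, which encodes GCN2, rose by 1.22 ± 0.15 (adjusted p = 6.95e-06 in limma) and its activator Gcn1 by 0.99, while the stress genes Trib3 and Ddit3 fell by 1.33 and 0.93. After Stat3 deletion 0 of the 8 passed in epithelial cells or in tumours of either sex.

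**Figure D5:**
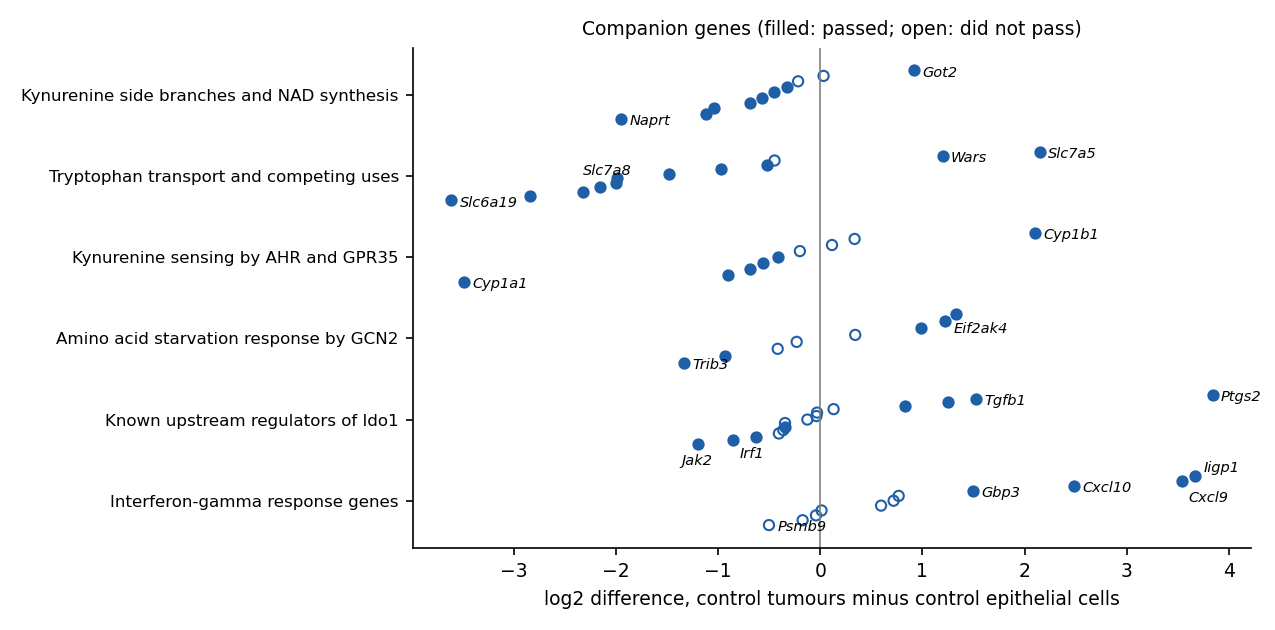
Companion genes in control tumours minus control epithelial cells; the x axis is the log2 difference, each point is a gene, filled when it passed, and rows are the 6 lists, with genes spread vertically by rank. The widest range belongs to tryptophan transport, from -3.61 (Slc6a19) to 2.15 (Slc7a5).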

How the data were processed

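Every array had 1 column of deposited log2 values, which the authors made with RMA, per the submitters' processing notes. The RMA version is not given in the sources used here. Probe sets were named from the platform table (21789 of 35556 with 1 symbol), and each gene was represented by its probe set with the highest mean; each member had 1. Genes above the array's 25th percentile in at least 3 arrays were tested (17316, with 6 of the 7 members). Precision is limited by the number of arrays, and without detection calls a dim gene cannot be separated from background. No probe's level was set against another's.

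A model with 1 mean per group was fitted to all 18 arrays in limma 3.58.1 (R 4.3.3), two-sided, with an intensity trend and Benjamini-Hochberg adjustment over all tested genes within each of 5 comparisons, at a threshold of 0.05; it was tested on simulated data. The tumour mean is the mean of the male and the female group. Replicate numbers are unique and pair nothing. Alternatives were quantile normalisation, no filter, only the groups compared, array weights, each replicate left out, and replicates 9 and 15 left out.

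The members, the lists of companion genes and markers, and the tests were chosen with earlier results of these data known. Named were the members, Stat3, up to 4 genes per list by smallest p among those that passed, 7 further fixed genes (Irf1, Ifng, Ahr, Cyp1a1, Tph1, Wars and Qprt) and the 5 genes most like Ido1. Listed genes without a probe set of their own are not analysed here.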

Additional observations from a re-analysis of the deposited data

Results flagged for a closer look

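Cxcl9, a chemokine gene induced by interferon-gamma, lay on opposite sides of its controls after Stat3 deletion. In epithelial cells the mean difference was 0.52, with all 3 deleted arrays above all controls, and in female tumours it was -1.20, with all 3 deleted arrays below all controls. Neither difference passed (adjusted p = 0.874 and 0.997 in limma), and the difference between these 2 tissues was not tested. The female minus male difference of the deletion effect was -2.11 ± 0.90 and did not pass, the estimate in male tumours being positive. That of both sexes' tumours together against epithelial cells was -0.67 ± 0.78 (adjusted p = 0.763 in limma), a value that averages the opposite estimates of the sexes.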

How the results depend on the processing

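Ido1 and Ido2 kept their calls in control tumours against control epithelial cells in all 14 alternatives, at -2.41 to -1.75 and -0.72 to -0.58. For Ido1 the alternatives reuse the control tumours by which it was chosen, so they give its call no independent support. The cause of the changes below was not tested. Genes called after deletion in epithelial cells went from 4 to 1134 with array weights, where 1 member (Ido2) was called, and to 2 with any replicate left out. Between the sexes 4 genes became 2 with only the groups compared, 10 without replicates 9 and 15, and 4 to 22 with single replicates left out. In male tumours 40 became 2 and 117 under the same first 2 settings and 13 to 84 with single replicates left out, and the 1 member called, a count fixed by the choice of Ido1, became 0 with only the groups compared, 0 with array weights, and 0 to 1 with single replicates left out. In female tumours 18 became 0 with only the groups compared, 745 with array weights, and 10 to 30 with single replicates left out. The 4 members called in control tumours became 2 to 4 with single replicates left out.

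Among the tested differences followed, directions turned only for some that did not pass. In epithelial cells Ido1 was 0.067 with quantile normalisation and 0.13 with array weights; with single replicates left out it was -0.15 to 0.078, Haao -0.24 to 0.0041 and Afmid -0.019 to 0.17. In control tumours against control epithelial cells, Kynu was -0.0045 to 0.22, Kmo -0.021 to 0.39 and Ifng -0.11 to 0.050 with single replicates left out, Kmo was -0.097 without replicates 9 and 15, and Ifng was 0.12 with quantile normalisation and 0.023 with array weights. Between the sexes Ido2 was -0.069 to 0.012, Kynu -0.35 to 0.10 and Kmo -0.58 to 0.24 with single replicates left out. With array weights Kynu was 0.10 and Kmo 0.24, and without replicates 9 and 15 they were 0.19 and 0.091. The mean of all probe sets was not run, since each member has 1. No paired analysis was possible because no replicate number is shared between groups.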
